A study of Homo sapiens with 4 samples.

Results

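The transcripts of 10 apoptosis regulators of the *BCL2* family were analyzed in HML58-3 cells: *BCL2*, *BCL2L1*, *MCL1*, *BCL2A1*, *BAK1*, *BID*, *BCL2L11*, *BIK*, *BMF* and *HRK*. Their probes were found by matching the accession of every gene probe of the array to a RefSeq gene table, which gave 17 probes of the 58201 gene probes. The table named 34892 probes in all, for 25006 genes. Of the 10 genes, 4 had 1 probe, 5 had 2 probes, and *BCL2L11* had 3. HML58-3 is a derivative of the human colorectal carcinoma line HCT116, and carries a luciferase reporter driven by a methylated marker promoter. Cells were treated with mock, with decitabine (DAC), which is a nucleoside analog that inhibits DNA methylation, or with the DAC prodrugs OR-2003 or OR-2100. The drugs were given at 1 μM on day 1, and RNA was taken on day 5. A single one-colour Agilent microarray was run for each of the 4 conditions, so that the differences below have no replicates behind them and no test was run.

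The proteins of this family decide whether a cell opens its mitochondrial outer membrane and dies by apoptosis. BCL2, BCL2L1 (BCL-XL), MCL1 and BCL2A1 keep the membrane closed, BAK1 forms pores in it, and the BH3-only proteins BID, BCL2L11 (BIM), BIK, BMF and HRK either block the survival proteins or switch on the pore formers. DNA methylation is laid down on cytosines of CG dinucleotides, and promoters differ widely in how many of these they hold.

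Of the members, *BAK1* gave the only probe that stood at least 2-fold above mock with all 3 drugs. *HRK* gave the only probe at least 2-fold below mock with all 3 drugs, and *BCL2L11* the only other, with DAC and OR-2003. The sequences upstream of these 3 genes are therefore shown, beside that of *BCL2A1*, a gene whose brighter probe stayed close to mock. Each is the 250 bases before the transcription start in RefSeq (GRCh38.p14), written 5′ to 3′ on the strand of the gene, with every CG dinucleotide in capitals. The *BAK1* sequence lies at chr6:33580277-33580526 on the minus strand and holds 5 CG, and that of *HRK* at chr12:116881442-116881691 on the minus strand holds 22. The *BCL2L11* sequence lies at chr2:111120664-111120913 on the plus strand and holds 34 CG, and that of *BCL2A1* at chr15:79971197-79971446 on the minus strand holds 2.
BAK1: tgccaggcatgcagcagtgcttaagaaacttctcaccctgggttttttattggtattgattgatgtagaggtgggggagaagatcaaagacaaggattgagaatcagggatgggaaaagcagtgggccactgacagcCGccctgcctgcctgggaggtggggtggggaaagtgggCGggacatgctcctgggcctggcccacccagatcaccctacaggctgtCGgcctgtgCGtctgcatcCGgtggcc
HRK: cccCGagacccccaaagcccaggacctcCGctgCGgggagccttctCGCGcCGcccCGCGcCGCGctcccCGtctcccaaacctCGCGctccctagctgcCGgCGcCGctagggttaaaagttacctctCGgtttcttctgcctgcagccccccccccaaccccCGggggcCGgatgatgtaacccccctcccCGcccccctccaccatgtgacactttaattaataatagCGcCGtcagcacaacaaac
BCL2L11: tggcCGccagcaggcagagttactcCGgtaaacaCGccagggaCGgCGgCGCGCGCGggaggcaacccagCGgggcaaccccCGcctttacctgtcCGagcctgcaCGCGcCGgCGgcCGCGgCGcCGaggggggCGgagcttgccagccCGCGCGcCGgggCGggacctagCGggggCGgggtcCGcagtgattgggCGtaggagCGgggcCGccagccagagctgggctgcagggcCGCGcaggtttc
BCL2A1: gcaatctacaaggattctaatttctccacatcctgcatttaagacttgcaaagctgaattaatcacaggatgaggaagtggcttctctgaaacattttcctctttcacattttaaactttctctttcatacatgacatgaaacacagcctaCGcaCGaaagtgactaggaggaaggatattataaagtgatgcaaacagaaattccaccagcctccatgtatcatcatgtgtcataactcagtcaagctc

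CG was counted in the 300 bases from 250 before to 50 after each start. The RefSeq table held 14 such promoters for 8 members, while *MCL1* and *BIK* were not listed. At least 1 CG was present in 96% of the 35116 promoters, and the median was 14 with quartiles of 4 and 28. The *BAK1* promoter held 7 CG, and 36.8% of all promoters held fewer. The *HRK* promoter held 25, with 68% of promoters below it, and that of *BCL2L11* held 39, with 91.3% below it. *BCL2* had 31, *BCL2A1* had 2, and *BCL2L1* had 16 and 20 at its different starts. *BID* ranged from 6 to 37 over 5 starts, and *BMF* had 1 and 31. *BAK1* and *BCL2A1* thus had fewer CG than the median promoter, and *BCL2*, *HRK* and *BCL2L11* had more. *BAK1*, *HRK* and *BCL2L11* had been picked by their differences from mock, and only some probes of *HRK* and *BCL2L11* passed 2-fold. A link between CG count and difference from mock was not tested. These counts describe the sequence only, and methylation of these promoters was not analyzed here.

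Values below are levels, the log2 intensity of a probe with the 75th percentile of its array, over gene probes, taken as 0, and a level of -1 or more was regarded as positive expression, as in the methods of the study. Every member probe was a single spot, and none was marked as an outlier. The error given with a difference is the estimate of the scanner software for the spots compared. It was 0.20 or 0.21 on the log2 scale for the member probes at -1 or more, and it covers no spread between cultures. The 3 comparisons share the mock array, so that an unusual mock culture would move all of them. The arrays were alike in depth, with 31601 to 33282 probes well above background, no saturated spot, and a 75th percentile intensity of 152 to 176, all on 1 slide. The scanner software put the spike-in slope of the mock array, 0.899, outside its accepted range, and those of the drug-treated arrays inside it. The epithelial keratins *KRT8*, *KRT18* and *KRT19* and the intestinal factor *CDX2* were well above background on all arrays, while the intestinal cadherin *CDH17* was on none. Of the blood cell markers, *CD14* was at -2.27 with mock and at -0.58 with DAC, -0.57 with OR-2003 and -0.56 with OR-2100, and *MS4A1* was well above background on none. The probes that every array measured well above background are called measured probes below. Their median log2 difference from mock was -0.21 with DAC, -0.19 with OR-2003 and -0.23 with OR-2100, and differences of several members are also given relative to it.

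The members were mostly expressed. Of their 17 probes, 16 were well above background on all 4 arrays, against 48.0% of all gene probes. On the mock array 12 were at -1 or more, against 31.0% of all gene probes, and the same number was on every array. The exceptions were both probes of *BCL2*, both of *BMF* and 1 of *BCL2A1*. In bulk RNA, fewer cells of a type and less RNA per cell cannot be told apart.

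**Figure D1:**
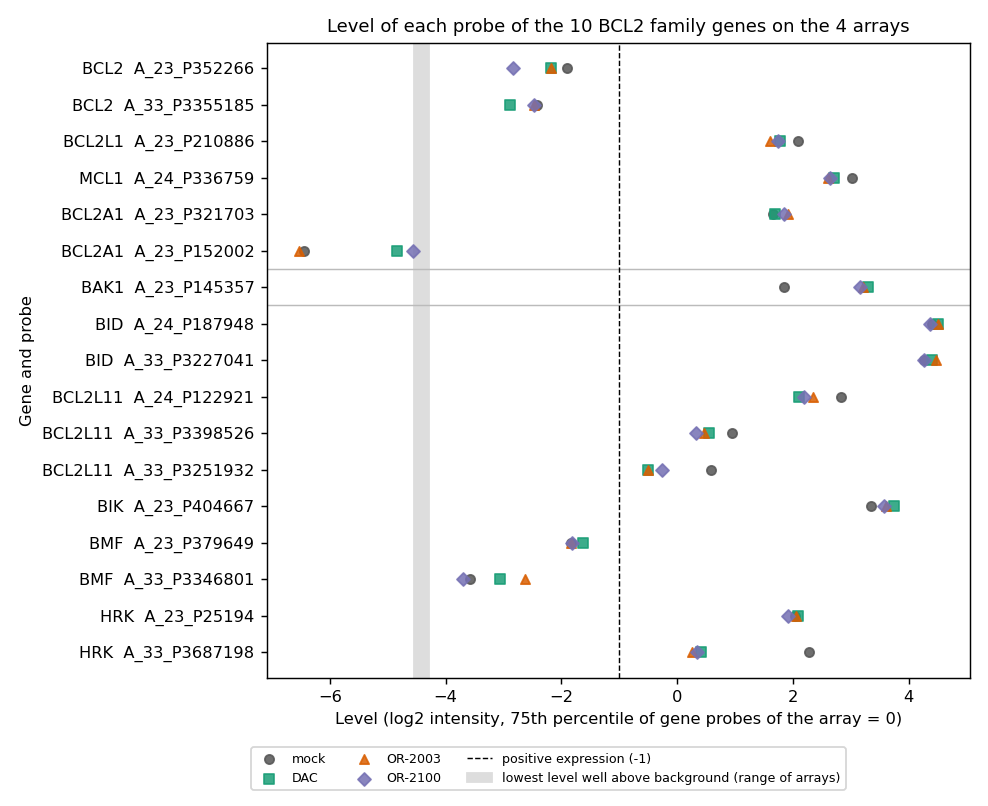
Level of each of the 17 member probes (rows) on the mock, DAC, OR-2003 and OR-2100 arrays, on a log2 axis with the 75th percentile of each array at 0. The dashed line marks -1 and the grey band the lowest level well above background, -4.55 to -4.29, under which a probe of *BCL2A1* lies on every array. For *BAK1* the mock point lies left of the drug points, and for *HRK* A_33_P3687198 and *BCL2L11* it lies right of them.

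A probe was counted as induced at 2-fold or more over mock with -1 or more on the drug-treated array, and as reduced at 2-fold or more under mock with -1 or more on the mock array. Of the 17 member probes, each drug induced 1, and it was the *BAK1* probe each time. Of all gene probes, DAC induced 3.44%, OR-2003 induced 3.53% and OR-2100 induced 3.50%, and 3.13% were induced with every drug. With DAC 2 member probes were reduced, 2 with OR-2003 and 1 with OR-2100, against 4.03%, 4.07% and 4.49% of all gene probes. Only 1 member probe was reduced by all 3 drugs, against 3.41%. Among the 19931 gene probes at -1 or more on at least 1 array, 10.0%, 10.3% and 10.2% were induced and 11.8%, 11.9% and 13.1% reduced by the drugs in this order, with 9.14% induced and 9.96% reduced by all 3, beside 1 and 1 of the 12 such member probes. These counts lie near the background, and are no result about the family as a group.

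In the main processing, the pro-survival genes showed no difference of 2-fold at their measured probes. *MCL1*, a short-lived guardian of the mitochondrial membrane, had a level of 3.02 with mock, 2.70 with DAC, 2.61 with OR-2003 and 2.64 with OR-2100. Values for the drugs are given in this order from here on. All 3 drug-treated arrays lay below mock, by log2 differences of -0.32, -0.41 and -0.38. *BCL2L1*, which encodes BCL-XL, was at 2.08 with mock and at 1.78, 1.61 and 1.73 with the drugs. Its differences of -0.31, -0.48 and -0.35 had the same sign with every drug. Set against the median of the measured probes, they shrank to -0.10, -0.29 and -0.12 for *BCL2L1* and to -0.11, -0.22 and -0.15 for *MCL1*.

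*BCL2*, the founding member of the family, stayed under -1 on every array. Its probe A_23_P352266 was at -1.91 with mock and at -2.19, -2.19 and -2.84 with the drugs, so that OR-2100 was the lowest. The differences were -0.28 ± 0.23, -0.28 ± 0.23 and -0.93 ± 0.24 (software error). The other probe, A_33_P3355185, did not show this, with -2.42 for mock and -2.89, -2.47 and -2.47 for the drugs, where DAC was the lowest. Its differences were -0.46 ± 0.26, -0.04 ± 0.24 and -0.05 ± 0.24. The drug that differed most from mock was thus not the same for the 2 probes of the gene. The OR-2100 difference of A_23_P352266 depended on the processing. It passed 2-fold at -1.08 with quantile normalization and -1.02 with median scaling, and shrank to -0.50 with normexp background correction.

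*BCL2A1*, a survival gene best known from blood cells and as a target of NF-κB, was well above background at 1 of its 2 probes. A_23_P321703 was at 1.66 with mock and at 1.70, 1.91 and 1.84 with the drugs, differences of 0.04, 0.26 and 0.18. The drug-treated arrays were all slightly above mock, at most by little more than the error of 0.20. Relative to the median of the measured probes, the differences were 0.25, 0.45 and 0.41. A_23_P152002 was not well above background on any array, so that no fold is given for it. On the mock array the 2 probes lay 8.11 apart, so that expression of *BCL2A1* rests on 1 of 2 probes that disagree. Which transcripts each probe reads was not examined.

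*BAK1*, the pore former of the set, was the member that stood out upward. Its level was 1.85 with mock and 3.29, 3.20 and 3.15 with the drugs, from an intensity of 549 with mock and intensities of 1729, 1530 and 1565 with the drugs. The 3 drug-treated arrays lay within 0.14 of each other and far above mock. The log2 differences of 1.44 ± 0.20, 1.35 ± 0.20 and 1.31 ± 0.20 amounted to 2.72, 2.55 and 2.47-fold. Relative to the median of the measured probes they were 1.66, 1.54 and 1.53. RefSeq lists the pseudogenes *BAK1P1* and *BAK1P2*, and whether the probe also reads them cannot be told from the files used here.

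Of the BH3-only genes, *HRK*, which binds BCL2 and BCL-XL, had 2 probes that disagreed. The probe A_33_P3687198 was at 2.28 with mock and at 0.41, 0.25 and 0.34 with the drugs. All drug-treated arrays lay far under mock and close together, still above -1. The differences of -1.87 ± 0.20, -2.03 ± 0.20 and -1.94 ± 0.20 correspond to levels 3.67, 4.08 and 3.85-fold lower than mock. The probe A_23_P25194 was at 2.04 with mock and at 2.09, 2.05 and 1.92 with the drugs. It did not move beyond the software error, with differences of 0.06, 0.01 and -0.12. In mean difference from mock the 2 probes lay 1.93 apart. Among the 4158 genes with 2 or more measured probes, 139, or 3.34%, had probes at least this far apart, and the median distance was 0.39. A statement that *HRK* transcripts were lower therefore rests on 1 of 2 probes, and which transcripts each probe reads is not given in the files used here.

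The named genes with the profile most like that of *HRK* A_33_P3687198 over the 4 arrays were *FRAS1*, *PAQR5* and *WDR35*. Likeness was taken as the Euclidean distance between log2 levels centred over the arrays, among 21272 measured probes with a gene name. The distances were 0.034, 0.040 and 0.052, and with 4 arrays, of which 3 lie together, many probes can come this close.

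*BCL2L11*, which encodes BIM, a binder of all the survival proteins, was lower with every drug at all 3 of its probes. A_24_P122921 was at 2.83 with mock and at 2.10, 2.35 and 2.19 with the drugs, and A_33_P3398526 was at 0.95 with mock and at 0.54, 0.47 and 0.32. A_33_P3251932 was at 0.58 with mock and at -0.51, -0.50 and -0.26 with the drugs. On each probe the mock array was the highest, while the order of the drugs varied. The differences were -0.73, -0.48 and -0.64 for the first probe and -0.41, -0.49 and -0.63 for the second. Those of A_33_P3251932 were -1.09 ± 0.21, -1.08 ± 0.21 and -0.85 ± 0.21, which made it 2.13, 2.12 and 1.80-fold lower and counted as reduced with DAC and OR-2003. On this probe the OR-2100 array lay 0.23 ± 0.21 above the OR-2003 array, and the 2-fold threshold falls between them. Relative to the median of the measured probes, A_24_P122921 was at -0.52, -0.29 and -0.41 and A_33_P3398526 at -0.20, -0.30 and -0.40. In the same way A_33_P3251932 was at -0.88, -0.89 and -0.62.

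*BIK*, whose protein sits at the endoplasmic reticulum, was modestly higher with each drug. Its level was 3.35 with mock and 3.74, 3.60 and 3.57 with the drugs, differences of 0.40, 0.26 and 0.23. These were 0.61, 0.45 and 0.46 relative to the median of the measured probes. *BID*, which links the death receptors to the mitochondria after cleavage by caspase 8, was at 4.39 with mock and at 4.51, 4.50 and 4.37 with the drugs on A_24_P187948. The second *BID* probe, A_33_P3227041, was at 4.27 with mock and at 4.40, 4.47 and 4.26. Both *BID* probes were slightly higher with DAC and OR-2003, by 0.11 to 0.20, and level with mock with OR-2100, at -0.02 and -0.01. Relative to the median of the measured probes, A_24_P187948 was at 0.33, 0.30 and 0.21 and A_33_P3227041 at 0.34, 0.39 and 0.22.

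*BMF*, whose protein is held at the cytoskeleton in healthy cells, was under -1 on every array. A_23_P379649 was at -1.83 with mock and at -1.62, -1.84 and -1.82 with the drugs, differences of 0.20, -0.01 and 0.01. A_33_P3346801 was at -3.58 with mock and at -3.05, -2.62 and -3.69 with the drugs. The differences of this dim probe were 0.53 ± 0.31, 0.96 ± 0.30 and -0.11 ± 0.34, so that OR-2003 was the highest and OR-2100 the lowest array.

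Over the members, signs were mixed. Of the 16 measured probes, 8 were lower than mock with all 3 drugs, 3 were higher, and 5 had both signs. Over the 27921 measured probes of the arrays, 57.0% were lower and 29.6% higher with all 3 drugs. Within 0.5 of mock on the log2 scale with every drug lay 9 of the 16. With the probe of highest mean signal for each gene, the median difference of the 10 genes was 0.048, -0.0014 and -0.071, beside -0.12, -0.093 and -0.23 for all 25006 named genes. By this rule *HRK* is represented by its unmoved probe A_23_P25194.

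Since DAC and its prodrugs were used at the same dose and time, the drug-treated arrays were set side by side in 3 pairs, with no test. For *BAK1*, OR-2003 minus DAC was -0.09, OR-2100 minus DAC was -0.14 and OR-2100 minus OR-2003 was -0.05, each within the software error of 0.20. For *HRK* A_33_P3687198 the same values were -0.15, -0.07 and 0.08. Among the 12 member probes at -1 or more on the mock array, the largest distance was 0.25 between OR-2003 and DAC, 0.24 between OR-2100 and DAC and 0.23 between OR-2100 and OR-2003. For *BAK1* and the lower *HRK* probe the drugs thus lay far closer to each other than to mock. *BID*, *BCL2A1* A_23_P321703 and *HRK* A_23_P25194 lay about as near to mock as the drugs lay to each other. Whether the drugs differ at all cannot be settled with 1 array each.

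Larger distances were seen for dim probes. *BMF* A_33_P3346801 was lower with OR-2100 than with OR-2003 by a log2 difference of -1.07 ± 0.29, the only measured member probe that differed 2-fold between drugs. Such a distance was seen for 0.516% of all 27921 probes in this pair, for 0.240% between OR-2100 and DAC and for 0.0788% between OR-2003 and DAC. *BCL2* A_23_P352266 was lower with OR-2100 than with DAC or OR-2003 by -0.66 ± 0.24 each, and the other *BCL2* probe was lower with DAC than with either prodrug. The median distance of the 16 member probes was 0.12, 0.16 and 0.13 in the 3 pairs, against 0.091, 0.12 and 0.13 over all 27921 probes.

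**Figure D2:**
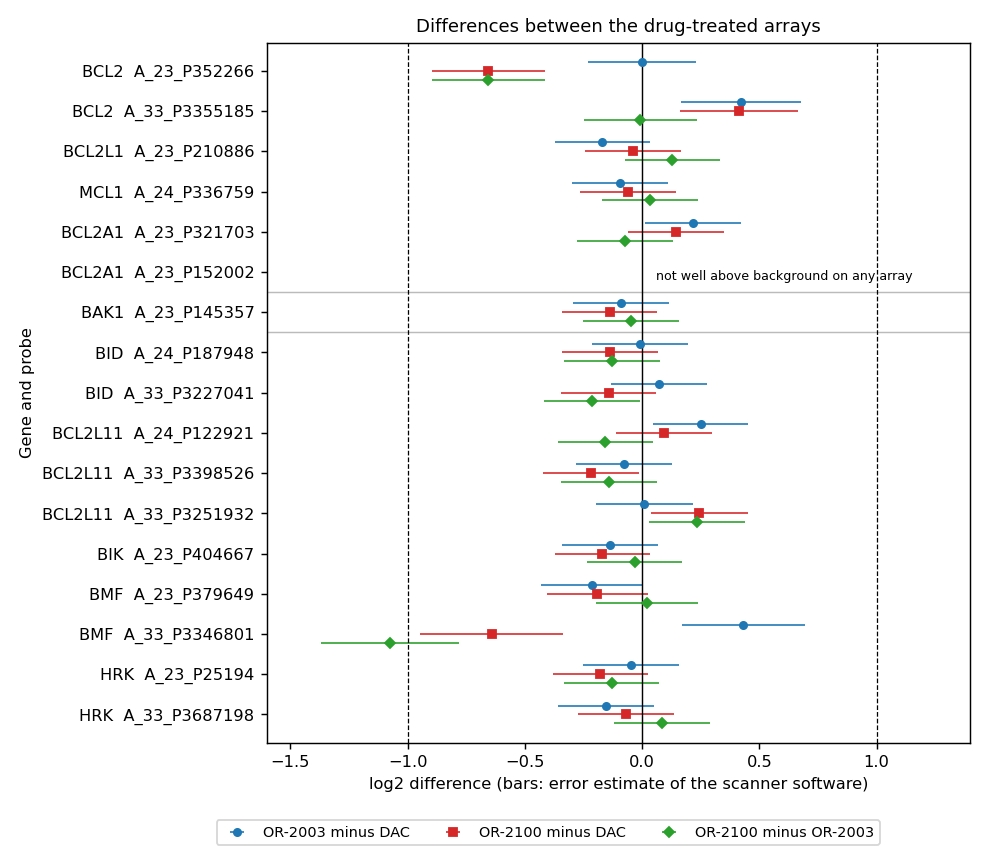
Log2 difference between drug-treated arrays (horizontal axis) for each member probe (rows), for OR-2003 minus DAC, OR-2100 minus DAC and OR-2100 minus OR-2003, with bars for the error estimate of the scanner software. Dashed lines mark 2-fold, which among the 16 measured probes plotted is passed only by *BMF* A_33_P3346801 at -1.07, and no value is drawn for the dim *BCL2A1* probe A_23_P152002.

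The other genes of the family, 13 in number, gave 0 induced and 1 reduced by all 3 drugs, counting a gene when any of its probes passed. Of all 25006 named genes, 5.76% were induced and 5.98% reduced in this way, so that the count lies near the background. *BCL2L10* was under -1 on every array and outside the count, and was too dim with mock to be well above background, with levels at least 3.33, 4.24 and 3.04-fold higher with the drugs. The reduced gene was *BBC3*, which encodes the BH3-only protein PUMA and is a textbook target of p53. Its level was 5.86 with mock and 4.55, 4.58 and 4.41 with the drugs, all well below mock, by -1.31, -1.28 and -1.45. *PMAIP1*, which encodes NOXA and also responds to p53, was at 4.91 with mock and at 4.61, 4.51 and 4.41 with the drugs, differences of -0.30, -0.39 and -0.50. *BAX*, the pore former akin to *BAK1*, was at 3.73 with mock and at 4.16, 4.04 and 3.77 on the probe printed as 10 spots, differences of 0.43, 0.31 and 0.04. Its other probe, at -1.79 with mock, had differences of 0.30, 0.38 and 0.18. *BAX* thus stayed under 2-fold with every drug at both probes, where *BAK1* passed it. With OR-2100 *BNIP3L* was also counted as reduced, at -1.04, and the median difference of the 13 genes was -0.077, -0.069 and -0.23.

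The differences were recomputed under 10 other ways of processing. Several of these could hardly move a measured member probe, each being a single spot that was not flagged. They were flagged spots kept, the median of spots, the series table, a floor, dim probes left out and control probes in the percentile. The ranges below thus come from normexp background correction and from quantile, median and bright-probe scaling (75th percentile of measured probes). Over all settings and drugs the *BAK1* probe was 1.13 to 1.64 above mock, and *BIK* 0.037 to 0.59 above. *HRK* A_33_P3687198 was -2.25 to -1.66 from mock, and the 3 probes of *BCL2L11*, the single probes of *BCL2L1* and *MCL1* and *BCL2* A_23_P352266 also kept below mock throughout. The other 7 measured probes, of *BCL2*, *BCL2A1*, *BID*, *BMF* and *HRK*, took both signs over drugs and settings.

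**Figure D3:**
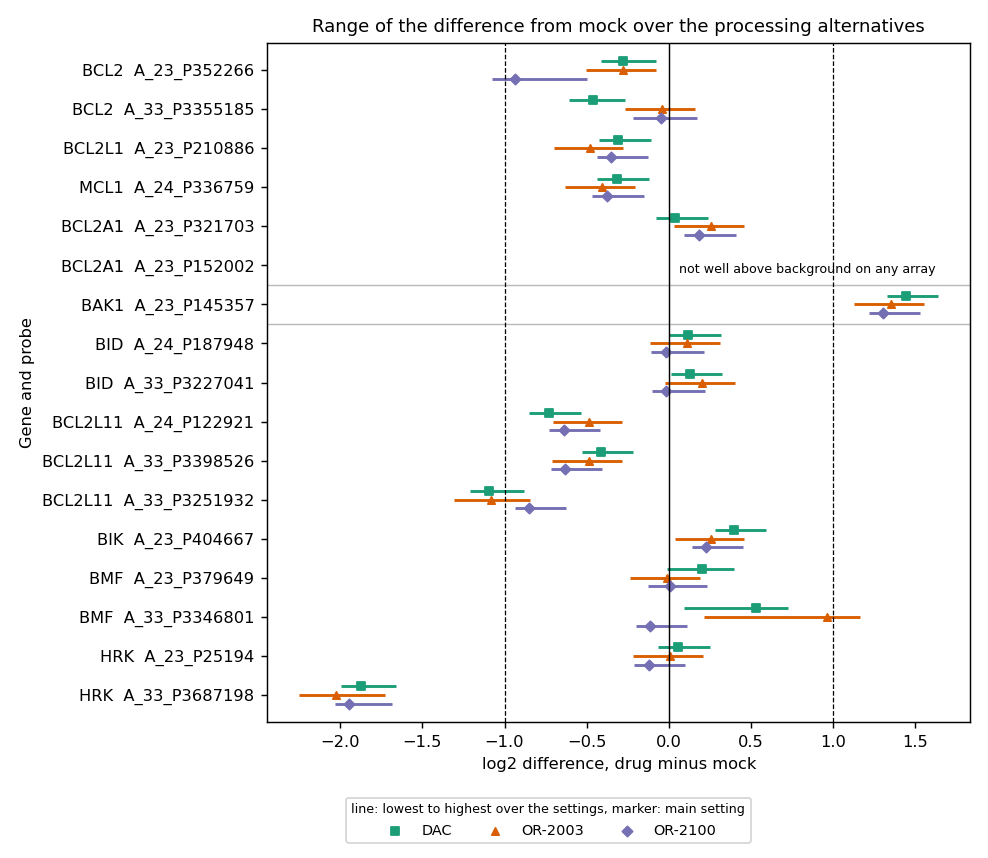
Lowest to highest log2 difference from mock (lines) over the main setting and 10 alternatives for each member probe (rows) and drug, with the main setting as a marker. *BAK1* and *BIK* stay right of 0, *HRK* A_33_P3687198 stays left of -1, and the lines of *BID* and *HRK* A_23_P25194 cross 0.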

How the data were processed

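RNA of HML58-3 cells from 4 conditions (mock and 3 drugs) was hybridised to 1 array each. The authors deposited scanner files that hold the background-subtracted intensity of every spot from Feature Extraction 12.1.0.3, with flags, and a series table with identical intensity values. Outlier spots were dropped, log2 intensities were averaged over the remaining spots of each probe, and each array was shifted so that the 75th percentile over gene probes was 0. Members were matched by RefSeq accession, with no probe left out. The members and lists were chosen with earlier results of these data known. Named were all members, genes of the lists (other family genes; apoptosome, caspases and inhibitors of apoptosis; death receptors; regulators) with a probe induced or reduced by all 3 drugs, *BAX*, *BBC3* and *PMAIP1*, and the 3 genes most like the member probe that differed most. For a probe too dim on the mock array to be well above background, an "at least" fold was taken against the lowest signal well above background there, or the signal of the probe if higher. Counting was tested on simulated arrays with changes well beyond the threshold at bright probes only. It therefore says nothing of probes near 2-fold or near background. Alternatives were normexp with an offset of 50, quantile, median, bright-probe and control-probe scaling, a floor, dim probes left out, flagged spots kept, the median of spots, the series table, other thresholds and other probe rules. Precision is limited by the number of arrays. Python 3.11.15, numpy 2.4.6, pandas 2.3.3, R 4.3.3 and limma 3.58.1 were used. Methylation arrays were not analyzed here, and some genes of the lists are not reported here.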

Additional observations from a re-analysis of the deposited data

How the results depend on the processing

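Leaving out a replicate was not possible with 1 array per condition. No paired analysis was possible because there is 1 array for each condition. No member probe counted as induced or reduced changed sign. *BAK1* was counted as induced by all 3 drugs under every scaling and background alternative. The number of reduced member probes was 1 with DAC and 1 with OR-2003, in place of 2, under normexp and under the 75th percentile of bright probes, where *BCL2L11* A_33_P3251932 missed 2-fold. Under median scaling 2 were reduced with OR-2100, *BCL2* A_23_P352266 being the second. At a 4-fold threshold, 0 were induced by each drug and by all 3, and 0, 1 and 0 were reduced by DAC, OR-2003 and OR-2100, with 0 by all 3. Without the level threshold 2 were induced by DAC and 2 by OR-2100, the dim *BCL2A1* probe being the second. With 1 probe per gene, 0 were reduced by any drug or by all 3, since the probe of highest signal for *HRK* and *BCL2L11* is not the one counted. The median difference of the member genes became 0.25, 0.20 and 0.15 under the percentile of bright probes and -0.070, -0.22 and -0.16 under median scaling, while that of all measured probes became -0.013, 0.012 and -0.0063, and -0.33, -0.41 and -0.32. With the probes of each gene averaged it was -0.092 for DAC and -0.20 for OR-2100. The sign of this median thus follows the scaling. Probes under -1 are limited by signal, with an SD between spots of one probe of 0.15 to 0.22 at levels of -4 to -1, against 0.058 to 0.066 at -1 or more.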

Other observations

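Other genes of cell death pathways were described from lists, and a gene was counted when any of its probes passed. Of all 25006 named genes, 5.76% were induced and 5.98% reduced by all 3 drugs in this way, and with lists this short nothing is read from the counts. Of 21 genes of the apoptosome, the caspases and their inhibitors, 3 were induced and 0 reduced by all 3 drugs. *BIRC3*, an inhibitor of apoptosis and a target of NF-κB, was at 0.44 with mock, 2.65 with DAC, 2.47 with OR-2003 and 2.85 with OR-2100, which made it 4.61, 4.07 and 5.33-fold higher. *XAF1*, which binds the inhibitor XIAP, was too dim with mock to be well above background, and its brighter probe was at least 28.9, 25.3 and 37.4-fold higher. The median log2 difference of the list was 0.0019, -0.056 and -0.17.

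Of 16 death receptor pathway genes, 2 were induced and 2 reduced by all 3 drugs. *PYCARD*, an adaptor of inflammasomes, was likewise too dim with mock, and was at least 21.8, 20.0 and 19.4-fold higher. *TNFRSF10C*, a decoy receptor of TRAIL, differed by 1.71, 1.66 and 1.66. *TNFRSF1A*, a TNF receptor, differed by -1.04, -1.06 and -1.09. *CFLAR*, an inhibitor of caspase 8, was reduced at 1 of 4 probes, by -1.53, -1.25 and -1.12, while the others lay between -0.09 and 0.35. The list median was -0.31, -0.26 and -0.31. Of 13 regulators of family proteins, 0 were induced and 2 reduced by all 3 drugs. *USP9X*, which removes ubiquitin from MCL1, was at 0.40 with mock and at -0.68, -0.81 and -0.94 with the drugs. *PTPMT1*, a mitochondrial phosphatase, was reduced at 1 of 2 probes, by -1.16, -1.16 and -1.12, while the other differed by -0.03, -0.09 and -0.21. The list median was -0.12, -0.089 and -0.21.

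Of the marker lists, the epithelial adhesion genes *EPCAM* and *CDH1* were reduced by all 3 drugs, at -1.49, -1.52 and -1.46 and at -1.09, -1.18 and -1.25. In the blood cell list *CD14* was induced by all 3 drugs, while 2 of 5 probes of *PTPRC*, the common leukocyte gene, were not well above background on any array. Of 5 fibroblast markers 0 were counted as induced or reduced, and several had a probe that was higher with every drug. *COL1A1* was at 0.99 with mock and at 1.82, 1.76 and 1.89, under 2-fold, and the others stayed under -1. *DCN* was too dim with mock to be well above background, with 1 of its 2 probes at least 6.6, 7.3 and 6.6-fold higher, and 1 of 2 probes of *PDGFRB* was at least 2.90, 2.83 and 3.13-fold higher. The other *PDGFRB* probe, well above background on all arrays, was lower with every drug, by -0.63, -0.29 and -1.08. *COL1A2* was at least 1.56, 2.01 and 1.79-fold higher. The epithelial gene *KRT20* likewise stayed under -1 and was at least 7.9, 8.7 and 7.0-fold higher. The part of cell makeup in the differences of the members was not tested.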
